A study of Mus musculus with 3 samples.

Results

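The mitochondrial genome was represented by 15 of the 26970 genes measured in mandibular condyles of WT, Dspp+/- and Dspp-/- mice. They were taken by their symbols, which begin with mt-, or by a position on the mitochondrial chromosome, and both criteria gave the same rows. Of the 15 genes, 13 encode proteins and 2 encode the ribosomal RNAs (rRNAs) of the organelle. GENCODE M21 annotates 37 mitochondrial genes. Its 22 mitochondrial tRNA genes were not among the genes measured and were therefore not analysed here.

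All mice were 4 months old and of the C57BL/6 background. WT mice carried 2 intact Dspp alleles, Dspp+/- mice were heterozygous for a knockout of Dspp in all cells of the body, and Dspp-/- mice were homozygous for it. Each genotype was represented by 1 library of poly(A)-selected RNA from condyles with cartilage and subchondral bone attached to each other. The study's methods give 3 pooled animals for the WT and the Dspp+/- sample and give no such number for Dspp-/-. A genotype thus has no replicates, every difference below is one between single libraries, and no p-value was computed. Dspp was not analysed here, and the genotype labels were therefore not checked against it.

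Mitochondria carry a small circular genome that is copied and transcribed apart from the nucleus. Both strands are read as long precursor RNAs, which are cut into separate messenger, ribosomal and transfer RNAs, and most of the messengers then receive a short poly(A) tail. The encoded proteins are core subunits of the respiratory complexes I, III and IV and of the ATP synthase (complex V), where they are assembled with many subunits that are encoded in the nucleus and imported. Stretches of mitochondrial DNA have also been copied into the nuclear chromosomes during evolution, and a sequencing read from such a stretch can match both places.

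Where 3 values stand together without labels, they are given in the order WT, Dspp+/- and Dspp-/-, and where 2 folds stand together, Dspp+/- over WT comes before Dspp-/- over WT. The libraries held 20241576, 23613621 and 22253158 fragments. Values are FPKM, fragment numbers scaled to the whole length of the gene and the size of the library, so that levels can be set side by side between genes. This holds only in part for genes with nuclear copies. How reads that match several places were assigned is not given, and the levels of such genes may not be comparable with those of others. FPKM does not adjust for composition, and a gene loses FPKM when others take a larger part of the library. Intervals in brackets are 95% Clopper-Pearson intervals on a fold or a share, made from the fragment numbers behind the FPKM, and they cover counting error only. Osteoblast and osteocyte markers were present in all 3 libraries, with summed FPKM of 16097, 4518 and 8726, and so were chondrocyte markers, with 1813, 501 and 796. Among the chondrocyte markers, Matn1 was listed at 0 in Dspp+/-. The Xist RNA, which is made from the inactive X chromosome of females, had 2, 12084 and 10563 fragments. The WT library thus stood apart from both mutants in this RNA as well. In comparisons with WT, the difference in Xist and that in genotype cannot be told apart. The part of the Xist difference in the values below was not tested.

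Sequences of mitochondrial genes are shown here because 5 of the 13 protein-coding genes are present almost unchanged on chromosome 1. The pair of mt-Nd4l and Gm10222 is shown as the shortest case of such a copy, in lower case wherever the sequences are the same. The gene mt-Nd4l encodes a small membrane subunit of complex I and lies at chrMT:9877-10173 on the plus strand. Gm10222 is annotated as an unprocessed pseudogene at chr1:24651488-24651781 on the minus strand, in the positions the deposited table gives, which are not those of GRCm38. Capitals mark the only bases of mt-Nd4l that lie past the annotated end of Gm10222. They belong to the 7 bases that mt-Nd4l shares with the start of mt-Nd4. That start is also present on chromosome 1, in the adjoining copy Gm28439, so that the marked bases do not set the gene apart. Sequences are those of GENCODE M21 transcripts (GRCm38), written 5′ to 3′.
mt-Nd4l: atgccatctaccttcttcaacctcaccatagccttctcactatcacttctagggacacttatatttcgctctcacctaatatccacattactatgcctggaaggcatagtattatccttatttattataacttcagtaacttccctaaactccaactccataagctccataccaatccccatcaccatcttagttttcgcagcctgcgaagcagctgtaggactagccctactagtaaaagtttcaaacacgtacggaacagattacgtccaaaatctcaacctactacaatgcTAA
Gm10222: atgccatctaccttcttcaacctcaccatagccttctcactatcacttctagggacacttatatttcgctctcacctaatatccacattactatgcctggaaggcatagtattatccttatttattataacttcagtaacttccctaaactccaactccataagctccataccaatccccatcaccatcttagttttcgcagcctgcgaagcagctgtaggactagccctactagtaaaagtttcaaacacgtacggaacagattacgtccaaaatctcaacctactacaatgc

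Over the 294 bases of Gm10222 there were 0 mismatches to mt-Nd4l. The copy of mt-Co1, the catalytic core of complex IV, is shown because it is the one with the most differences on chromosome 1. Its copy Gm29216 covers bases 1054 to 1545 of mt-Co1 and differs at 6 of 492 bases, all within the first stretch of the copy, printed here with the differing bases in capitals.
mt-Co1, bases 1054 to 1113: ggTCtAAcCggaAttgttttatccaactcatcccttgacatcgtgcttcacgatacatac
Gm29216, bases 1 to 60: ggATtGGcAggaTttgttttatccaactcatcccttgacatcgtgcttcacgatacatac

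Counted from the first base of mt-Co1, and with the mitochondrial base first, the differences are T1056A, C1057T, A1059G, A1060G, C1062A and A1066T. The other member that differed was mt-Nd3, a membrane subunit of complex I, whose copy Gm28438 carried T3C as its 1 mismatch over 345 bases. No mismatch was found in the copies of mt-Co2 (Gm28661, 681 bases), mt-Atp6 (Gm10925, 678 bases), mt-Co3 (Gm28437, 783 bases) and the first 876 bases of mt-Nd4 (Gm28439).

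In place, the 7 copies on chromosome 1 followed each other in mitochondrial gene order. They spanned 4663 bases, at chr1:24650616-24655278 in the positions of the table, against 4662 bases in the mitochondrial genome, at chrMT:6381-11042. All 7 lay on the minus strand and were annotated as unprocessed pseudogenes. Between the copies of mt-Co2 and mt-Atp6 lay 233 bases with no annotated gene, where the mitochondrial genome has 230 bases between these genes that hold most of mt-Atp8. The gene mt-Atp8 encodes a small subunit of the ATP synthase, at chrMT:7766-7969, and its last 43 bases, in capitals, are also the first bases of mt-Atp6.
mt-Atp8: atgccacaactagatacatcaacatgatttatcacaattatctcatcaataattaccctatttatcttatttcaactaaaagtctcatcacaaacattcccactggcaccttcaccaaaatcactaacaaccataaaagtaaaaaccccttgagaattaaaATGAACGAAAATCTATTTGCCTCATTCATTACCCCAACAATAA

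A shared stretch also joins mt-Nd5 and mt-Nd6, which encode membrane subunits of complex I on opposite strands. They overlap by 14 bases, in capitals in the end of mt-Nd5, which lies at chrMT:11742-13565.
mt-Nd5, bases 1765 to 1824: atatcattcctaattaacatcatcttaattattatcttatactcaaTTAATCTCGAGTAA

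The library kit does not mark the strand of an RNA. Reads from mt-Nd6, the only protein-coding gene on the minus strand, and reads from the opposite strand of the same region therefore cannot be told apart.

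The share of each gene's 100-base sequences that are also found in annotated nuclear genes divided the members. It was 99.9% for mt-Co3, 99.5% for mt-Co2, 99.5% for mt-Atp6, 98.5% for mt-Nd4l and 97.6% for mt-Nd3, which are called copied genes below. It was 60.8% for mt-Nd4 and 30.8% for mt-Co1, which are copied in part. It was 3.19% for mt-Nd2 and 0 for mt-Nd1, mt-Nd5, mt-Nd6, mt-Cytb, mt-Rnr1 and mt-Rnr2, whose reads have little or no such match. It was also 0 for mt-Atp8, but only annotated genes were searched, and the corresponding stretch of chromosome 1 holds none. This division was made after the values had been seen.

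The levels of the 13 protein-coding genes fell into separate ranges in every library. In the WT library, the 7 genes that are not copied whole lay between 5591 and 22314 FPKM and the 5 copied genes between 111 and 346. In Dspp+/- these ranges were 10186 to 38421 and 187 to 684 FPKM, and in Dspp-/- they were 10131 to 35989 and 131 to 515 FPKM. The lowest gene of the first range was 16.2-fold, 14.9-fold and 19.7-fold above the highest copied gene. Below both ranges lay mt-Atp8, with 39, 54 and 22 fragments. The 5 genes with a whole annotated copy on chromosome 1 were thus all in the lower range, and mt-Atp8, which has no annotated copy, was lower still. The part of reads that match both places in the low values was not tested.

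**Figure D1:**
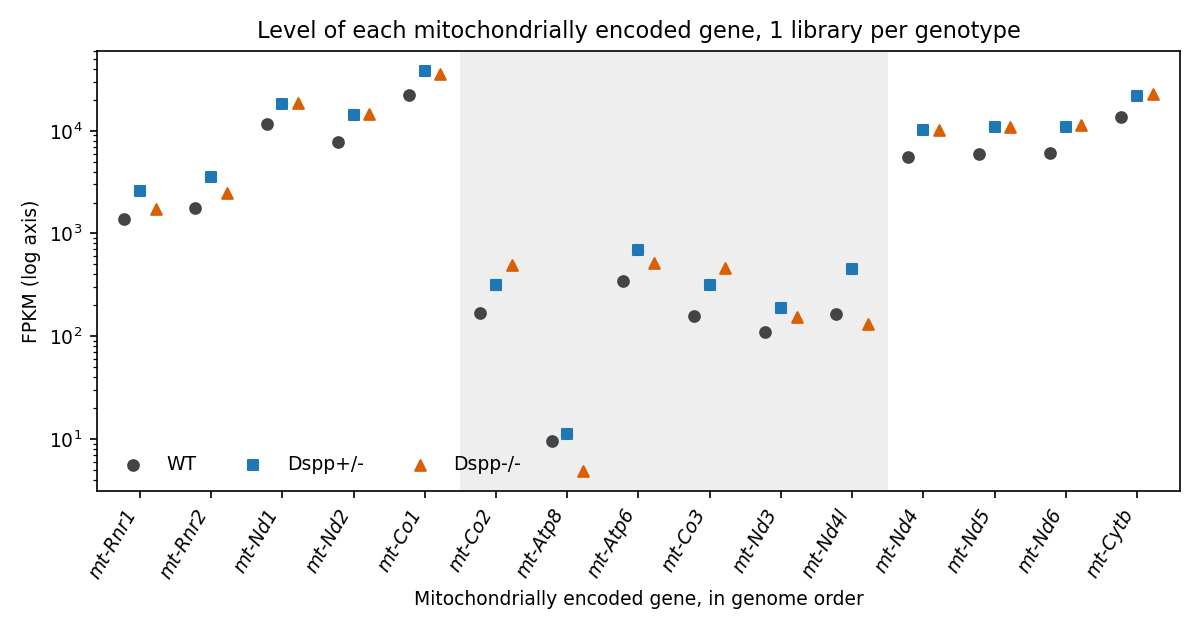
FPKM on a log axis for the 15 mitochondrially encoded genes in genome order, with 1 point per library for WT, Dspp+/- and Dspp-/-. Shading covers the stretch from mt-Co2 to mt-Nd4l, where the levels in WT lie between 9.44 and 346 FPKM, and outside it they lie at 1382 FPKM or more.

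**Figure D2:**
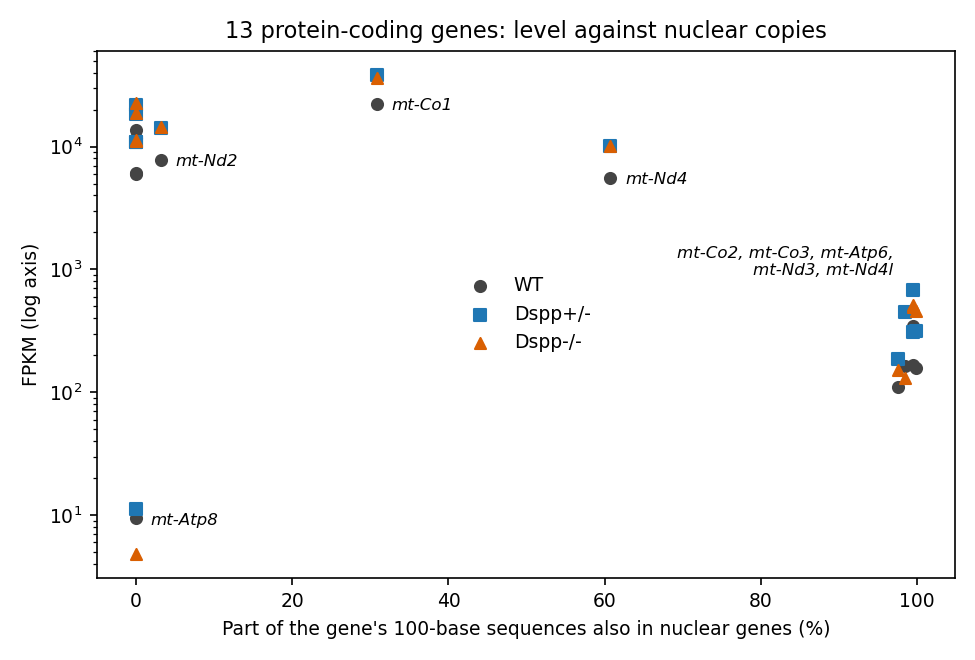
FPKM on a log axis for the 13 protein-coding genes against the percent of each gene's 100-base sequences that also occur in annotated nuclear genes, with 1 point per gene and library. The 5 genes above 90% lie at 684 FPKM or less in every library, and of the genes under 90% only mt-Atp8 does.

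In these condyles, mitochondrial messengers held ranks 1 to 4 of each library by FPKM. The members took 7 of the 10 highest ranks of the WT library, 9 of those of Dspp+/- and 8 of those of Dspp-/-. For scale, the highest genes outside the mitochondrial genome were Col1a1, the main collagen chain of bone, with 6675 FPKM in WT, and Acta1, the actin of skeletal muscle, with 8162 FPKM in Dspp+/- and 7150 in Dspp-/-. Counted in fragments, the 15 members held 9.58% of the WT library (9.57 to 9.59), 16.52% of Dspp+/- (16.50 to 16.53) and 16.11% of Dspp-/- (16.09 to 16.12). Protein-coding members held 9.17% (9.16 to 9.18), 15.71% (15.70 to 15.73) and 15.55% (15.53 to 15.56) of the fragments. The rRNAs held 0.409% (0.407 to 0.412), 0.806% (0.802 to 0.809) and 0.558% (0.555 to 0.561), so that both groups were lowest in WT. In bulk tissue, more cells rich in mitochondria and more mitochondrial RNA per cell cannot be told apart.

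The first question is whether the mitochondrial messengers differed between the genotypes. All 13 exceeded their WT level in Dspp+/-, and 11 of 13 did in Dspp-/-, where mt-Nd4l and mt-Atp8 were lower. Among all genes whose mean level reached 1 FPKM, 56.3% were higher in Dspp+/- and 50.7% in Dspp-/-. The median log2 ratio of FPKM + 1 to WT was 0.85 in Dspp+/- and 0.74 in Dspp-/-, and the medians over all 13026 genes whose mean level reached 1 FPKM were 0.058 and 0.0070. At least 2-fold higher in Dspp+/- were 2 of the 13, mt-Co3 and mt-Nd4l, where 4.88% of all 13026 genes were, and in Dspp-/- they were mt-Co2 and mt-Co3, where 4.05% of all genes were. The log2 ratio of mt-Co3 in Dspp+/- was 1.01, and it was under 2-fold with a pseudocount of 5, at 0.99, with median-ratio scaling, at 0.94, and with scaling without hemoglobin, immunoglobulin and muscle genes, at 0.81. None was at least 2-fold lower in either mutant, with 2.86% and 1.37% of all genes lower. At 1.5-fold, 12 of 13 were higher in Dspp+/-, with mt-Atp8 as the exception, and none was lower, where 11.5% of all genes were higher and 8.95% lower. In Dspp-/-, 9 of 13 were at least 1.5-fold higher against 8.84% of all genes, and only mt-Atp8 was at least 1.5-fold lower, against 8.21%. Both comparisons use the same WT library.

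Complex I, which takes electrons from NADH, has 7 mitochondrially encoded subunits. Of these, mt-Nd1, which lies at the junction with the peripheral arm, stood at 11764 FPKM in the WT library, at 18320 in that of Dspp+/- and at 18586 in that of Dspp-/-. Its folds over WT were 1.56 (1.55 to 1.57) and 1.58 (1.57 to 1.59). Both mutant libraries were thus above WT and close to each other. The proton-pumping subunit mt-Nd2 had 7736, 14212 and 14541 FPKM, folds of 1.84 and 1.88. Another pumping subunit, mt-Nd4, had 5591, 10186 and 10131 FPKM, folds of 1.82 and 1.81. The largest such subunit, mt-Nd5, had 5999, 10828 and 10998 FPKM, folds of 1.80 and 1.83. In all of these genes the WT library was the low one. For mt-Nd6 the values were 6055, 10873 and 11331 FPKM, folds of 1.80 and 1.87. Its FPKM relative to that of mt-Nd5 was 1.01, 1.00 and 1.03, so the 2 overlapping genes stood at nearly the same level per length in each library.

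The small complex I subunits mt-Nd3 and mt-Nd4l are copied genes. The first had 111, 187 and 152 FPKM, with folds of 1.69 (1.55 to 1.84) and 1.37 (1.25 to 1.503). The second had 165, 450 and 131 FPKM, with folds of 2.73 (2.54 to 2.94) and 0.793 (0.723 to 0.870). It was the only gene with a copy on chromosome 1 for which the mutants lay on opposite sides of WT. Beside its neighbour mt-Nd4, with which it overlaps by 7 bases, its FPKM was 0.0295, 0.0442 and 0.0129 of that of mt-Nd4.

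Complex III holds a single mitochondrially encoded protein, cytochrome b. Its gene mt-Cytb had 13625, 21793 and 22695 FPKM, the second-highest level in each library. The folds over WT were 1.60 (1.59 to 1.61) and 1.67 (1.66 to 1.67), so that here too both mutants were above WT.

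The 3 catalytic-core subunits of complex IV, the enzyme that passes electrons to oxygen, divided by their copies. The highest gene of all libraries, mt-Co1, had 22314, 38421 and 35989 FPKM, with folds of 1.72 (1.72 to 1.73) and 1.61 (1.61 to 1.62). The copied genes mt-Co2 and mt-Co3 lay far lower on this scale, and both were highest in Dspp-/-. For mt-Co2, which encodes the subunit that receives electrons from cytochrome c, FPKM was 166, 312 and 499, with folds of 1.88 (1.79 to 1.97) and 3.00 (2.86 to 3.14). For mt-Co3 it was 157, 318 and 460, with folds of 2.02 (1.93 to 2.12) and 2.92 (2.79 to 3.06). The ratio of mt-Co2 to mt-Co3 in FPKM was 1.06, 0.982 and 1.08, and their ratios to mt-Co1 were highest in Dspp-/-.

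The ATP synthase has 2 mitochondrially encoded subunits, both of the membrane part. The copied gene mt-Atp6, which encodes part of the proton channel, had 346, 684 and 515 FPKM, with folds of 1.98 (1.91 to 2.05) and 1.49 (1.44 to 1.55). For mt-Atp8, FPKM was 9.44, 11.2 and 4.85. Its fold in Dspp+/- was 1.19, with an interval of 0.772 to 1.84 that holds no difference, and its fold in Dspp-/- was 0.513 (0.290 to 0.887). The 2 proteins are translated from a shared messenger, and mt-Atp6 was 36.6-fold, 61.0-fold and 106-fold above mt-Atp8 in FPKM.

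**Figure D3:**
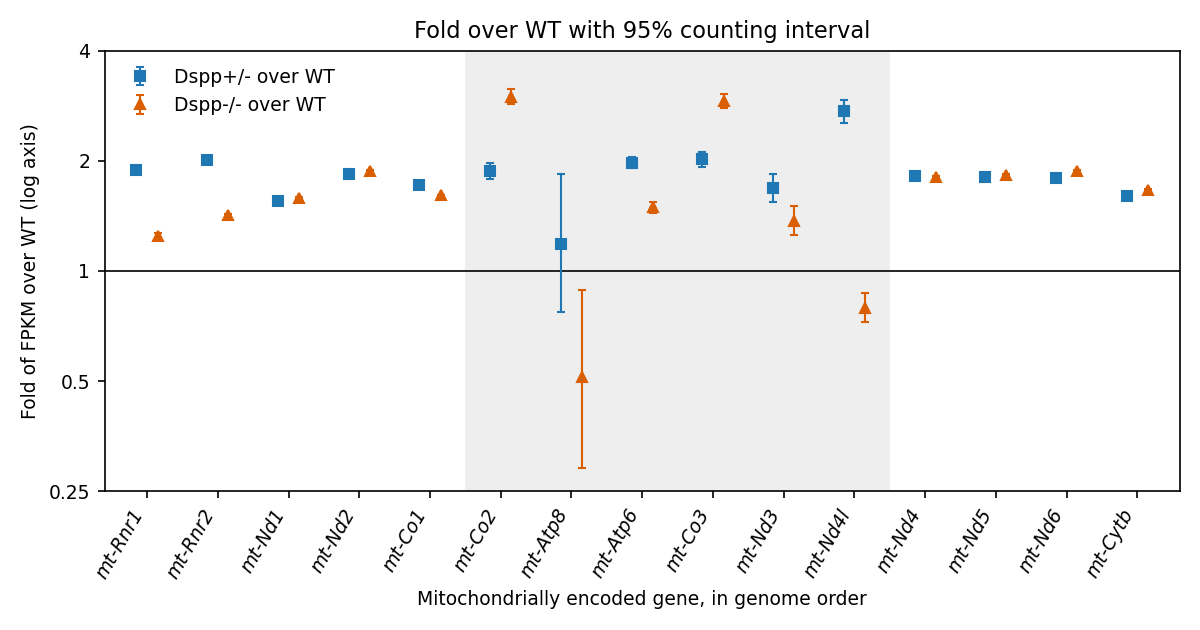
Fold of FPKM over WT on a log axis for each of the 15 mitochondrially encoded genes in genome order, with squares for Dspp+/-, triangles for Dspp-/- and bars for 95% intervals of counting error. The 7 protein-coding genes outside the shaded stretch lie between 1.56 and 1.88 in both mutants, and the genes in the shaded stretch scatter between 0.513 and 3.00.

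Set against each other, the mutants were nearly equal in the genes that are not copied whole. Over these 7 genes, the fold over WT ran from 1.56 to 1.84 in the heterozygous and from 1.58 to 1.88 in the homozygous mutant, and the fold of Dspp-/- over Dspp+/- ran from 0.937 for mt-Co1 to 1.04 for mt-Nd6. Over the 5 copied genes, the last fold ran from 0.290 for mt-Nd4l to 1.60 for mt-Co2. At least 2-fold lower in Dspp-/- than in Dspp+/- were mt-Nd4l and mt-Atp8, with 0.798% of all genes lower by as much, and none was at least 2-fold higher, with 0.852% of all genes higher. At 1.5-fold, mt-Co2 was higher and the same 2 genes were lower, against 3.39% and 4.32% of all genes. The median of all 13 log2 ratios between the mutants was 0.02.

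The make-up of the messengers shifted little between libraries in the 7 genes that are not copied whole, and more in the others. The share of mt-Co1 in the summed FPKM of the 13 genes was 30.1%, 30.3% and 28.6%. The share of mt-Cytb was 18.4%, 17.2% and 18.0%. The share of mt-Nd1 was 15.9%, 14.5% and 14.7%, so that both of these were highest in WT. Shares of mt-Nd2, mt-Nd4, mt-Nd5 and mt-Nd6 were lowest in WT, at 10.4%, 7.55%, 8.10% and 8.18%. In Dspp+/- they were 11.2%, 8.05%, 8.55% and 8.59%, and in Dspp-/- 11.5%, 8.04%, 8.73% and 8.99%. The other 6 genes together held a small part of the sum, and their shares moved more. The share of mt-Nd4l was 0.223%, 0.356% and 0.104%, a log2 ratio to WT of 0.68 in Dspp+/- and -1.10 in Dspp-/-. In Dspp-/- against WT, the log2 ratio of shares was 0.82 for mt-Co2, 0.78 for mt-Co3 and -1.73 for mt-Atp8, and it was -0.19 for mt-Atp6 and -0.31 for mt-Nd3. These shares do not depend on the other genes of the library, except on nuclear copies that match the same reads.

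The copies on chromosome 1 had values of their own. Gm10925, the copy of mt-Atp6, had 203, 477 and 368 FPKM. Gm29216, the copy of part of mt-Co1, had 250, 450 and 396 FPKM. Gm28439, the copy of part of mt-Nd4, had 79.0, 179 and 147 FPKM. Each of the 7 copies was above its WT level in both mutants, where 56.3% (Dspp+/-) and 50.7% (Dspp-/-) of all genes were. Their folds were 1.61 to 2.35 for Dspp+/- and 1.54 to 1.90 for Dspp-/-. Where gene and copy are identical, reads that lie wholly inside them cannot be told apart, and the way such reads were assigned is not given in the sources used here.

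With the fragments of gene and copy added, mt-Co2 had folds of 1.83 (1.76 to 1.90) in Dspp+/- and 2.48 (2.38 to 2.57) in Dspp-/-, and mt-Co3 had 1.98 and 2.56. For mt-Atp6 they were 2.12 and 1.61, and for mt-Nd3 1.66 and 1.58. The sum for mt-Nd4l was 2.57-fold in Dspp+/- and 0.964-fold in Dspp-/-, with an interval of 0.893 to 1.04 that holds no difference from WT. In Dspp+/-, the genes not copied whole ran from 1.56 to 1.84. The sum brought mt-Co2 from 1.88 into that range, and mt-Co3 and mt-Nd4l from 2.02 and 2.73 closer to it. That for mt-Nd3 stayed inside it, and only mt-Atp6 moved away, from 1.98. In Dspp-/-, with a range of 1.58 to 1.88, each sum was nearer to the range than the gene alone. The gene alone had 3.00 for mt-Co2, 2.92 for mt-Co3, 1.49 for mt-Atp6, 1.37 for mt-Nd3 and 0.793 for mt-Nd4l. The sums for mt-Co2 and mt-Co3 remained above that range and that for mt-Nd4l below it. The part of the copies in these folds was not tested. The sums for mt-Co1 and mt-Nd4 kept folds of 1.72 and 1.61, and of 1.83 and 1.81.

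The rRNAs of the organelle, which form the cores of its small and large ribosomal subunits, differed from the messengers between the mutants. The small-subunit rRNA gene mt-Rnr1, at chrMT:70-1024, stood at 1382 FPKM in the WT library, at 2606 in that of Dspp+/- and at 1724 in that of Dspp-/-. Its folds over WT were 1.89 (1.86 to 1.91) and 1.25 (1.23 to 1.27). The large-subunit rRNA gene mt-Rnr2, at chrMT:1094-2675, had 1753, 3519 and 2486 FPKM, with folds of 2.01 (1.99 to 2.03) and 1.42 (1.40 to 1.43). In both genes the order was WT, then Dspp-/-, then Dspp+/-, and Dspp-/- was 0.662-fold and 0.706-fold of Dspp+/-. Within each library, mt-Rnr2 stood above mt-Rnr1 by 1.27-fold, 1.35-fold and 1.44-fold in FPKM.

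Against the summed FPKM of the 5 protein-coding genes with under 5% shared sequence (mt-Nd1, mt-Nd2, mt-Nd5, mt-Nd6 and mt-Cytb), the summed FPKM of the rRNAs stood at 0.0694, 0.0806 and 0.0539. Counted in fragments, that ratio was 1.17-fold of WT (1.16 to 1.18) in Dspp+/- and 0.787-fold (0.780 to 0.794) in Dspp-/-. The summed FPKM of the 5 messengers were 1.68-fold and 1.73-fold of WT, and those of the rRNAs 1.95-fold and 1.34-fold. Libraries of this kind keep RNA with a poly(A) tail, and rRNA enters them only in part. Rn18s, the rRNA of the small cytosolic ribosomal subunit and a repeated gene whose reads can match several places, was the only other RNA without the usual tail that was compared, and it had 95.1, 844 and 227 FPKM. Its order of libraries was that of the mitochondrial rRNAs, and the part of poly(A) selection in the rRNA values was not tested.

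**Figure D4:**
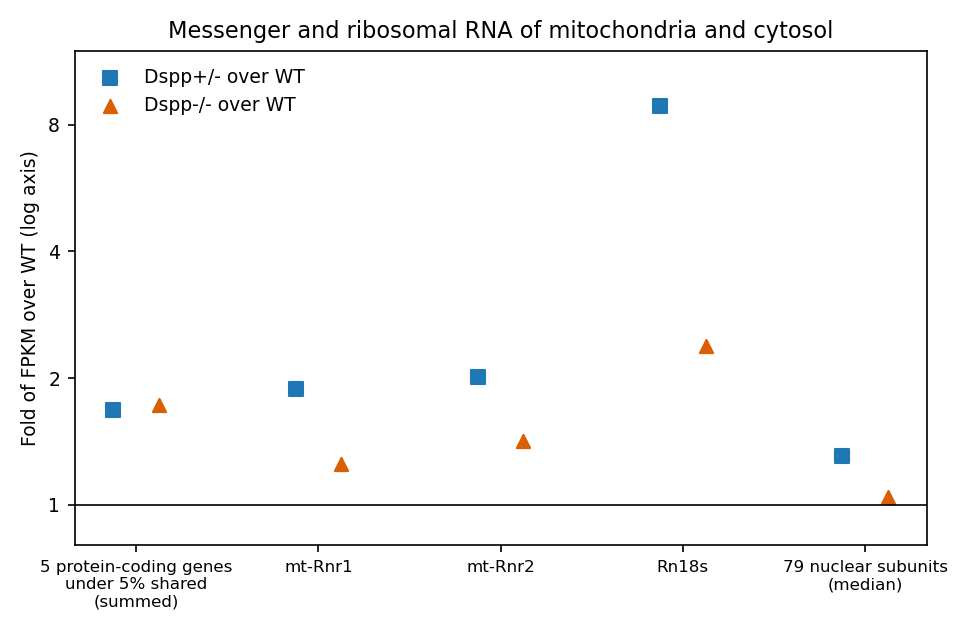
Fold of FPKM over WT on a log axis for the summed 5 protein-coding mitochondrial genes with under 5% shared sequence, for mt-Rnr1, mt-Rnr2 and Rn18s, and for the median of 79 nuclear-encoded subunits, with squares for Dspp+/- and triangles for Dspp-/-. The messengers lie at 1.68 and 1.73, and each rRNA lies higher in Dspp+/- than in Dspp-/-.

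The nuclear genome encodes the other subunits of the same complexes, and 79 of them were compared. Their median log2 ratio to WT was 0.38 in Dspp+/-, with 69 higher and 10 lower where 56.3% of all genes were higher, and 0.06 in Dspp-/-, with 44 higher and 35 lower where 50.7% of all genes were higher, where scaling without hemoglobin, immunoglobulin and muscle genes turned the median to -0.10. By complex, the medians in Dspp+/- and Dspp-/- were 0.34 and 0.03 for complex I (36 genes), 0.47 and 0.04 for complex II (4), 0.42 and 0.18 for complex III (9), 0.27 and 0.06 for complex IV (15) and 0.42 and 0.11 for complex V (15). In Dspp+/-, 4 of the 79 had a fold at or above 1.56, the lowest of the 7 mitochondrial genes that are not copied whole, and in Dspp-/- 0 of the 79 reached the corresponding 1.58. Between the mutants, 73 of the 79 were lower in Dspp-/-, with a median of -0.34, while the mitochondrial messengers had a median of 0.02. Over all genes, 44.7% were higher in Dspp-/- than in Dspp+/-, and the median was -0.037.

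Among these nuclear subunits, Ndufa10 of complex I had the highest log2 ratio to WT in Dspp+/-, with 32.4, 54.4 and 42.3 FPKM, folds of 1.68 and 1.31. Cox8a of complex IV had the lowest such ratio, with 78.6, 49.5 and 35.6 FPKM, folds of 0.630 and 0.453. It was the only one past 2-fold in either mutant, lower in Dspp-/-, where 1.37% of all genes were.

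Genes that make, process and use the mitochondrial RNAs were measured at low to moderate levels, and none of those compared passed 2-fold on the log2(FPKM + 1) scale. Over all genes, 4.88% were at least 2-fold higher and 2.86% lower in Dspp+/-, and 4.05% and 1.37% in Dspp-/-. At those shares, lists this short would hold few such genes, and the scale understates the differences of low genes. For transcription, the median of 8 genes was 0.18 in Dspp+/- and 0.20 in Dspp-/-. The mitochondrial RNA polymerase Polrmt had 4.78, 6.27 and 5.74 FPKM, and Tfam, which packs the mitochondrial DNA and starts its transcription, had 7.69, 8.44 and 10.3. At the ends of that list in Dspp+/- were the termination factor relatives Mterf3, with folds of 1.39 and 1.32, and Mterf4, with 0.857 and 0.817. For copying of the DNA, the median of 8 genes was 0.091 in Dspp+/-, which the same scaling turned to -0.035, and -0.22 in Dspp-/-. Its ends were the helicase Twnk, with folds of 1.39 and 0.978, and the polymerase Polg, with 0.946 and 0.739.

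For cutting, tailing and decay of the RNAs, the median of 19 genes was 0.25 in Dspp+/- and 0.24 in Dspp-/-. Lrpprc, which holds mitochondrial messengers stable, had 6.54, 11.2 and 9.96 FPKM, folds of 1.71 and 1.52. The poly(A) polymerase of the organelle, Mtpap, had 2.73, 3.17 and 3.48 FPKM, folds of 1.16 and 1.27. On the log2(FPKM + 1) scale in Dspp+/-, the ends of the list were the RNA-binding protein gene Ptcd2, with folds of 1.72 and 1.55, and the exonuclease gene Rexo2, with 0.849 and 0.838. Of 11 translation factors, all were higher in Dspp+/-, with a median of 0.35, and 7 were higher in Dspp-/-, where 56.3% and 50.7% of all genes were, with a median of 0.05 in Dspp-/- that the same scaling turned to -0.067. At the ends of the list on the same scale, the translational activator Taco1 had folds of 1.56 and 1.303, and the release factor Mtrf1l had 1.01 and 0.861.

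For regulators of mitochondrial biogenesis, the median of 6 genes was 0.17 in Dspp+/- and 0.11 in Dspp-/-, and the same scaling turned these to -0.00041 and -0.014. The coactivator Ppargc1a had 2.62, 5.74 and 4.75 FPKM, and its log2 ratio of FPKM + 1 was 0.89 in Dspp+/-, where its fold of FPKM alone was 2.19. Its relative Ppargc1b had 2.84, 2.53 and 3.16 FPKM. Another 14 genes had functions, such as import and transport, that go with the amount of mitochondria. Their median was 0.42 in Dspp+/- and 0.10 in Dspp-/-, and the same scaling turned the latter to -0.058. Of these 14 genes, 13 were higher in Dspp+/- and 10 in Dspp-/-, where 56.3% and 50.7% of all genes were. These ran from the chaperonin Hspd1, with folds of 1.66 and 1.06, to the ADP/ATP carrier Slc25a5, with 0.904 and 0.839. With the values as deposited, the lists in Dspp-/- thus had medians between -0.22 and 0.24, beside 0.74 for the mitochondrial messengers.

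**Figure D5:**
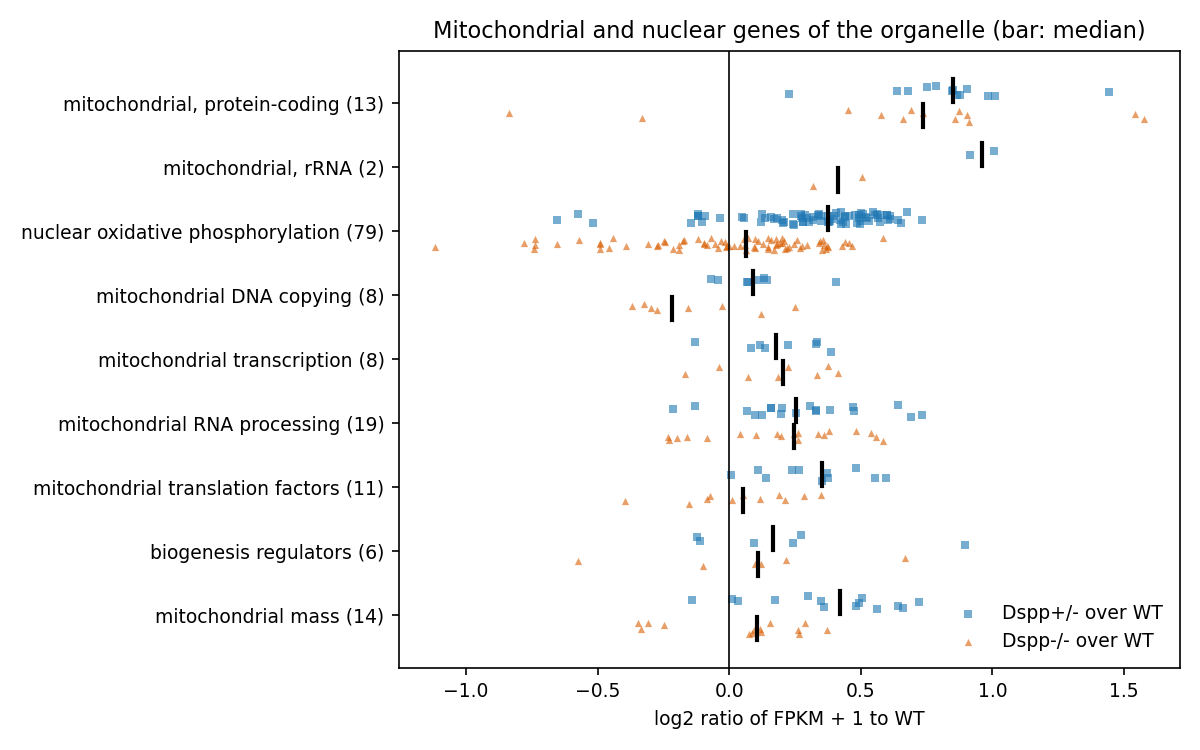
Log2 ratio of FPKM + 1 to WT for each mitochondrially encoded gene and for each nuclear-encoded gene of 7 lists, with squares for Dspp+/-, triangles for Dspp-/-, black bars for medians and the number of genes in brackets. The protein-coding mitochondrial medians lie at 0.85 and 0.74, and the 79 nuclear subunits at 0.38 and at 0.06, which turned to -0.10 with scaling without hemoglobin, immunoglobulin and muscle genes.

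Markers of other cell types also differed between the libraries. Summed FPKM of 12 skeletal muscle markers, a tissue rich in mitochondria, was 13608, 18479 and 14508, and of the 11 compared, 9 were higher and 2 lower in Dspp+/- and 5 higher and 6 lower in Dspp-/-. Erythroid markers, of cells that lose their mitochondria as they mature, summed to 905, 3781 and 3654 FPKM, and 12 of 12 were at least 2-fold higher in each mutant. Neutrophil markers summed to 634, 2870 and 3791 FPKM, again with 12 of 12 at least 2-fold higher in each. Over all genes, 4.88% were at least 2-fold higher in Dspp+/- and 4.05% in Dspp-/-. Markers of blood-forming lineages were thus higher in both mutants than in the WT library. B cell markers summed to 516, 1201 and 1104 FPKM, with 8 of 9 compared higher in Dspp+/- and 9 of 9 in Dspp-/-. Adipocyte markers summed to 127, 179 and 233 FPKM, with 5 of 9 and 9 of 9 higher.

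Markers of the condyle's own cells went the other way. All 12 osteoblast and osteocyte markers and all 10 chondrocyte markers compared were lower in both mutants than in WT. So were all 10 osteoclast markers, with summed FPKM of 2280, 817 and 1331. By comparison, 56.3% of all genes were higher than in WT in Dspp+/- and 50.7% in Dspp-/-. In the muscle, erythroid, neutrophil, B cell, adipocyte, osteoblast and osteoclast lists no marker was at 0 in any library. The part of cell composition in the mitochondrial values was not tested.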

How the data were processed

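RNA sequencing of mandibular condyles gave 1 library for each of the 3 genotypes. The authors deposited 1 value per gene and library, whose unit the file does not name and which was read here as FPKM, because multiplying by gene length gave multiples of a fixed step in each library. In the submitters' processing notes the labels list FastQC 0.11.5, HISAT2 2.1.0, StringTie 1.3.3b and DESeq 1.28.0 and the build hg38, with no role given. The positions of the 15 mitochondrial genes equal those of GENCODE M21 on GRCm38, and the nuclear positions of the table, those on chromosome 1 included, are not of GRCm38 and their build is not given in the sources used here. The labels speak of triplicates, and the single value per gene was taken as that of 1 pooled library.

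From the FPKM and the merged exon lengths of GENCODE M21, whole fragments (tolerance 0.02) were recovered in all 3 libraries for 26142 of 26641 genes, 98.1%. The recovery was tested on simulated data. Per kilobase of gene, 1 fragment adds 0.0494 FPKM to the WT value, 0.0423 to that of Dspp+/- and 0.0449 to that of Dspp-/-. Genes whose mean reached 1 FPKM were compared as log2 of FPKM + 1, which understates the differences of low genes, and a 2-fold threshold took the place of a test. No gene of the compared members was at or under the floor of 3 fragments.

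Sequences and overlaps were read from GENCODE M21 transcripts, in stretches of 100 bases, and the classes of copied genes were chosen after seeing the data. Lists of nuclear genes were written by hand. The mitochondrial genes, the lists, the settings and the rule for naming genes were chosen with earlier results of these data known. Named are all mitochondrial genes and, of each nuclear list, the members with the highest and lowest log2 ratio to WT in Dspp+/-. Also named are 5 genes of mitochondrial RNA and biogenesis, the highest nuclear genes and the 3 highest nuclear copies. Further copies and nuclear genes were named after their values were seen. As alternatives, pseudocounts of 0.1 and 5, a minimum mean of 5 FPKM or none, 3 other scalings, thresholds of 1.5-fold and 4-fold, and shares in fragments were tried. Computation used scipy 1.17.1, pandas 2.3.3, Biopython 1.88, numpy 2.4.6 and matplotlib 3.10.9 under Python 3.11.15.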

Additional observations from a re-analysis of the deposited data

Results flagged for a closer look

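In 2 of the 15 mitochondrial genes the mutant libraries lay on opposite sides of WT, and with 1 library per genotype the difference between the mutants was not tested. The fold of mt-Nd4l over WT was 2.73 in Dspp+/- and 0.793 in Dspp-/-. With the fragments of its chromosome 1 copy added, it was 2.57 and 0.964. The fold of mt-Atp8 over WT was 1.19 in Dspp+/- and 0.513 in Dspp-/-, from 39, 54 and 22 fragments in WT, Dspp+/- and Dspp-/-.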

How the results depend on the processing

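No paired analysis was possible because each genotype has 1 library and the libraries carry no replicate numbers. The tRNA alternatives were not run, as no mitochondrial tRNA gene was among the genes measured. Counted over members, settings and both comparisons with WT, all 150 recomputed log2 ratios of single mitochondrial genes kept their direction. A changed pseudocount cannot turn a direction, and each scaling divides all genes of a library by the same factor. The count of 150 is therefore not a set of separate tests. The medians over the 13 protein-coding genes in Dspp+/- and Dspp-/- against WT were 0.88 and 0.82 with scaling without mitochondrial genes, 0.78 and 0.72 with median-ratio scaling, and 0.66 and 0.57 with scaling without hemoglobin, immunoglobulin and muscle genes. The last scaling moved the medians of all genes from 0.058 and 0.0070 to -0.10 and -0.13, and the mitochondrial medians stayed above these. Over the 7 genes not copied whole, the median in Dspp-/- was 0.86. Between the mutants, the medians under the 3 scalings were 0.072, 0.071 and 0.047. At least 2-fold higher in Dspp+/- was 1 gene, mt-Nd4l, with a pseudocount of 5, with median-ratio scaling and with the hemoglobin, immunoglobulin and muscle scaling, where mt-Co3 fell out, and 3 genes, mt-Atp6 among them, with scaling without mitochondrial genes. At 1.5-fold, 12 were higher in Dspp+/-, 9 were higher and 1 lower in Dspp-/-, and at 4-fold the number was 0 in each. The log2 ratio of the summed rRNAs was 0.99, 0.90 and 0.77 in Dspp+/- under the 3 scalings, in the same order, 0.50, 0.41 and 0.26 in Dspp-/-, and -0.49, -0.49 and -0.51 between the mutants. For the 79 nuclear subunits, the hemoglobin, immunoglobulin and muscle scaling gave 0.18 in Dspp+/- and turned the median in Dspp-/- to -0.10, and the cause was not tested. Under a minimum mean of 5 FPKM, the median of the biogenesis regulators in Dspp-/- was -0.18. The mitochondrial share of the summed FPKM of WT, Dspp+/- and Dspp-/- was 25.02%, 36.9% and 37.3%. It was 26.5%, 39.8% and 39.8% of the FPKM without hemoglobin, immunoglobulin and muscle genes, and the protein-coding genes alone held 24.0%, 35.2% and 36.1% of the FPKM. In fragments, the share of all 15 genes was 9.58%, 16.5% and 16.1%. The share of mt-Co1 was 37.6%, 37.8% and 35.8% of the fragments of the 13 protein-coding genes, and 28.9%, 28.9% and 27.6% of the FPKM of all 15 genes. Counting error was small for all members but mt-Atp8, and the spread between mice is unknown.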
